A study of Mus musculus with 6 samples.

Results

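Secreted factors that act on myeloid cells, on cells with the shared receptor chain gp130 and on blood vessels were measured in CT26, a mouse colon carcinoma line of the BALB/c strain. The set comprised 10 genes, matched by symbol to the Ensembl identifiers of the gene tables, of 53801 genes in all: the colony-stimulating factors Csf1, Csf2 and Csf3, the IL-6 family cytokines Il6, Il11 and Lif, the angiogenic factors Vegfa and Vegfc, and the cytokines Mif and Tslp. RNA-seq was performed on 6 libraries, 2 (replicates A and B) from each of 3 lines, to compare lines resistant to immune checkpoint blockade with the line they came from. The parental line was a bulk population of barcoded CT26 cells taken back from mouse tumours, whereas B04 and B64 were each grown from 1 cell of such a tumour, so each is 1 clone, and the study describes both as resistant to blockade of PD-1 and CTLA-4. Cells of all lines carried the barcode vector and had been selected with puromycin and, per the labels, the cultures were left untreated. The study's discussion places the isolation of the clones after checkpoint blockade, although its isolation methods mention no such treatment. Differences present beforehand and any brought about by blockade therefore cannot be told apart. The sample labels call the material tumour, but the growth protocol and the study's methods describe cells cultured in RPMI medium. The methods mention duplicates, but neither they nor the labels state plainly that replicates A and B were separate cultures. The p-values therefore measure the spread between these libraries, which may be technical.

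Colony-stimulating factors drive the survival and maturation of macrophages and granulocytes, and each acts through its own receptor on myeloid cells. Cytokines of the IL-6 family bind a ligand-specific receptor and then recruit gp130, encoded by Il6st, which signals through JAK kinases and STAT3. Vegfa is the main growth factor of blood vessel endothelium and Vegfc that of lymphatic endothelium, while Mif is an abundant cytokine that binds Cd74 and Tslp is an epithelial cytokine that acts on dendritic cells. Tumour cells of many kinds secrete such factors, which act on the myeloid and vascular cells around them.

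Library totals ranged from 19409204 to 23472012 expected counts. The libraries fell into fragment-length classes that did not follow the lines: gene length exceeded effective length by 271.8 to 277.3 bases in both parental libraries and B04 replicate A (long fragments), but by 220.8 to 246.2 bases in B04 replicate B and both B64 libraries (short fragments). Fragment length and line therefore cannot be told apart between B64 and the parental line except through the B04 libraries. Endothelial markers summed to at most 0.2 TPM, with 4 of 5 at the floor of 3 counts a library. Leukocyte markers, of which 5 of 7 were at the floor, had a summed level of 36.64 to 40.22 TPM in B64 against 10.46 to 12.16 TPM elsewhere. Nearly all of this was Cd68 (39.62 and 36.06 TPM in B64), while the pan-leukocyte marker Ptprc did not exceed 0.01 TPM. Fibroblast markers, 2 of 5 at the floor, summed to between 8.31 and 12.35 TPM, but all 3 that were tested passed the threshold between B04 and the parental line, 1 higher (Pdgfrb) and 2 lower (Dcn and Pdgfra). The Pdgfra call was lost without parental replicate A or B04 replicate B (adjusted p = 0.211 and 0.16) and that of Dcn without B04 replicate B (adjusted p = 0.0636), and both were lost with the fragment-length block (adjusted p = 0.217 and 0.094). Of the 8 epithelial markers, 4 were at the floor, Epcam, Cdh1 and Vil1 among them, and the sum was 45.74 to 48.23 TPM in B64 against 22.38 to 25.42 TPM elsewhere, mostly Krt18 and Krt20. The epithelial label of the line thus rested on these keratins and not on Epcam or Cdh1. Cdx2, of the same list, went the other way, with 33.4 and 22.4 normalised counts in parental cells and 0 in every B04 and B64 library. No epithelial marker was called lower in either clone.

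RefSeq start-site windows of GRCm38.p6 were matched for 8 of the 10 genes. Windows of 300 bases, with 250 bases before the start site, were searched on both strands for the AP-1 motif TGANTCA, the cyclic AMP response element TGACGTCA, the NF-kB motif (GGG, any 2 bases, then TTTCC) and the hypoxia response core ACGTG. These motifs do not overlap one another in the windows shown. The 250 bases upstream of Il11, Lif and Il6 are shown because these gp130 cytokines all held an AP-1 motif but differed widely in level. Capitals mark AP-1 motifs and, in Il6, the NF-kB motif. The sequences lie at chr7:4778142-4778391 on the minus strand for Il11, inside the span of the Ensembl gene and upstream of the second of its RefSeq start sites, at chr11:4257318-4257567 on the plus strand for Lif, and at chr5:30012864-30013113 on the plus strand for Il6.
Il11: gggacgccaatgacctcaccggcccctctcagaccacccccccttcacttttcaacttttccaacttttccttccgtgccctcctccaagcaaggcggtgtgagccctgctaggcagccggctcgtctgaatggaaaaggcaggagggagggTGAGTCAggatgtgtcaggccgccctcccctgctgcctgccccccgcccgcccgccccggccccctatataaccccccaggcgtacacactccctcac
Lif: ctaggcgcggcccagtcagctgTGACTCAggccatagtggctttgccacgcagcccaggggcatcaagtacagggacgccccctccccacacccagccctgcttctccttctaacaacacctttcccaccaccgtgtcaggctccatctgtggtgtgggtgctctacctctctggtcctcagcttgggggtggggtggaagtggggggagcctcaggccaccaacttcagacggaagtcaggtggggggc
Il6: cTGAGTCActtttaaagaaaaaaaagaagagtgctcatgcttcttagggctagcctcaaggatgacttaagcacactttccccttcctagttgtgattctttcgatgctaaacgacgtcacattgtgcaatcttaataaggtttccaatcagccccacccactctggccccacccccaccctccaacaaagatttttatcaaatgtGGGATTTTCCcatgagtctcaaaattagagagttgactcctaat
The AP-1 motif began 98 bases upstream of the start site in Il11, 228 bases upstream in Lif and 249 bases upstream in Il6, and 7.81% of all 32851 RefSeq windows held one. The NF-kB motif began 44 bases upstream of the Il6 start site, and a match on the other strand began 154 bases upstream of that of Csf1, against 1.63% of windows. Mif held the cyclic AMP response element 24 bases upstream of its start site, and 1.79% of windows held this element. The hypoxia response core, found in 19.6% of windows, was present in 1 window of Vegfa, which lies inside the span of the Ensembl gene. In the window of Mif it began at base 30 downstream of the start site. The windows of the other Il11 start site and of the other Vegfa start site, and those of Csf2 and Vegfc, held none of these letters. A match is a description of the sequence and does not show that a factor binds there.

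Of the 10 genes, 7 exceeded the floor of 3 counts in at least 1 library, and 5 (Csf1, Il11, Lif, Vegfa and Mif) were tested by DESeq2, which sets aside genes with counts too low to be called. Csf3, the granulocyte factor, and Tslp were at 0 in all 6 libraries. Vegfc had at most 1 count in any library. A count of 0 allows up to 3 counts, or 0.128 to 0.155 CPM in these libraries, so these 3 genes were not detected at this depth. Csf2, the granulocyte-macrophage factor, had 6 and 2 expected counts in parental cells, 3 and 2 in line B04, and 5 and 0 in line B64. Il6 had 4 and 2 expected counts in parental cells, 1 and 1 in line B04, and 3 and 4 in line B64. Il6 was lowest in both B04 libraries, by at most 3 counts. Neither gene reached 0.6 TPM in a library, DESeq2 set both aside as too low to test, and no difference between lines was detectable for them at this depth.

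On the TPM scale, which is corrected for transcript length, the order of the detected genes was the same in each line down to Il11. Mif was highest, at 2317.61 and 2452.32 TPM in parental cells, 2130.54 and 2050.96 in line B04, and 2334.16 and 2428.17 in line B64. It ranked between 70 and 83 among all genes by mean TPM. Csf1 was next, at 140.82 to 166.14 TPM over the 6 libraries, and Vegfa followed at 109.89 to 135.03 TPM. Lif lay at 10.56 to 13.46 TPM and Il11 at 0.89 to 3.84 TPM. Within each line the 2 libraries of each of these genes lay above those of the next, so neighbours in this order did not overlap. Csf2 and Il6 came last, and their libraries overlapped in the parental line and in B64. The plot of normalised counts shows each library of the 5 tested genes.

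**Figure D1:**
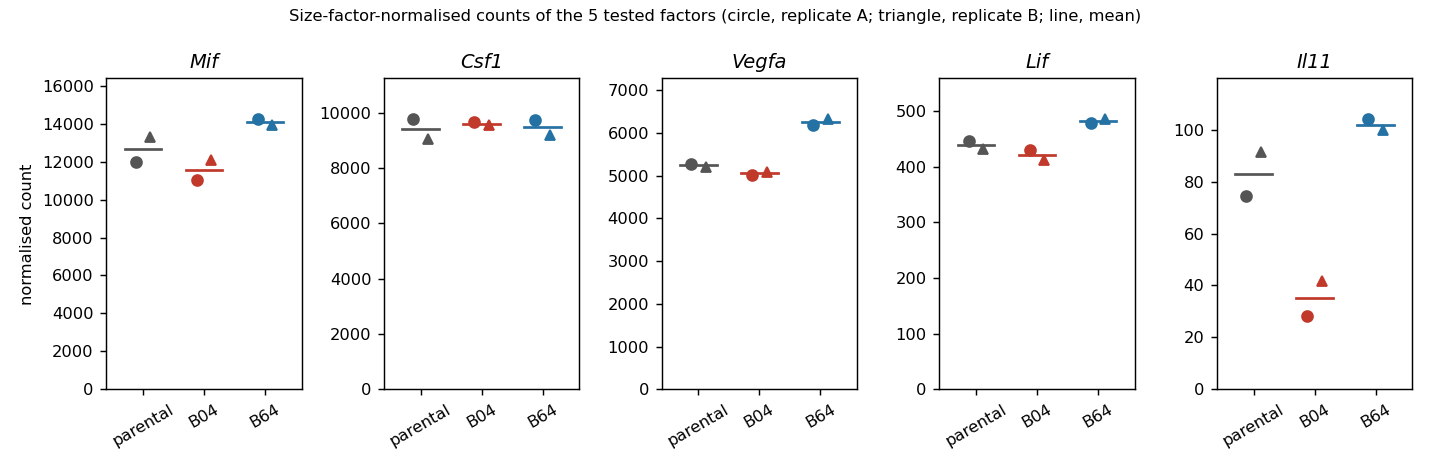
Normalised read counts (counts divided by the DESeq2 size factor, linear axes from 0) of Mif, Csf1, Vegfa, Lif and Il11 in the parental line, B04 and B64. Circles are replicate A, triangles replicate B and lines the mean of 2 libraries. B04 lies lowest for Il11, at 28.3 and 41.7, and B64 highest for Vegfa, at 6193 and 6331.

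Between B04 and the parental line, 1 of the 5 tested genes was called at an adjusted p under 0.05, Il11, which was lower in B04. Over all 13218 genes tested, 24.1% were called, 11.2% higher and 12.9% lower in B04, so the count for the set was close to the background. Between B64 and the parental line 1 of 5 was called, Vegfa, which was higher in B64, against 16.3% of 13218 genes, of which 8.87% were higher and 7.45% lower. Between B64 and B04, 3 of 5 were called, Il11, Vegfa and Mif, all higher in B64, beside a background of 24.3% of 12855 genes, of which 13.1% were higher and 11.1% lower. With 5 genes, a share carries little weight, and since the comparisons share libraries these counts are not separate pieces of evidence. The median log2 fold change of the 5 genes was -0.06 for B04 over parental, 0.16 for B64 over parental and 0.29 for B64 over B04, beside 0.00, 0.00 and 0.00 for all genes tested.

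**Figure D2:**
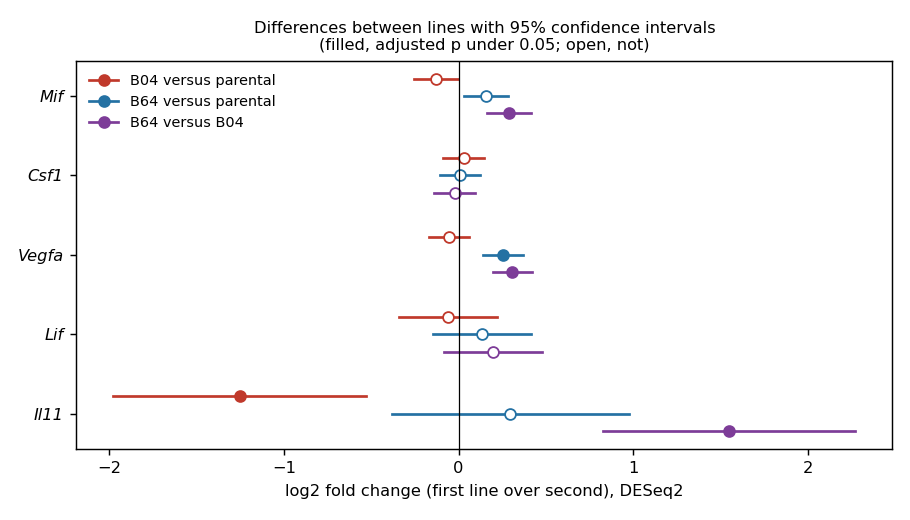
Log2 fold change of the 5 tested genes in each comparison of lines, first line over second, with 95% confidence intervals from DESeq2. Filled points have an adjusted p under 0.05 and open points do not. Il11 spans from -1.25 (B04 over parental) to 1.55 (B64 over B04), whereas every Csf1 value lies within 0.03 of 0.

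Il11 (ENSMUSG00000004371, chr7:4772373-4782859, minus strand), a cytokine of bone, fibrosis and gastrointestinal tumours that signals through Il11ra1 and gp130, had 74.4 and 91.7 normalised counts in parental cells, 28.3 and 41.7 in line B04, and 104.2 and 99.9 in line B64. The B04 libraries lay below all others and the B64 libraries above all others, so no groups overlapped. In RNA from bulk cells, fewer cells that express a gene and less of its RNA per cell cannot be told apart. The level in B04 was 2.38-fold lower than in the parental line (log2 fold change -1.25, SE 0.37, adjusted p = 0.0047) and the level in B64 was 2.93-fold higher than in B04 (1.55, SE 0.37, adjusted p = 0.000259). B64 did not differ from the parental line past the threshold (0.30, SE 0.34, 95% confidence interval -0.38 to 0.97, adjusted p = 0.679). Among the libraries with long fragments, B04 replicate A lay below the parental libraries by a log2 fold change of -1.56 (adjusted p = 0.018), and among those with short fragments B64 lay above B04 replicate B by 1.29 (adjusted p = 0.0502). The fall in B04 rested on few counts: without B04 replicate A it was -0.99 (adjusted p = 0.166), and without parental replicate B it was -1.10 (adjusted p = 0.134). Fibroblast markers did not move together in B04: of the 3 tested, 2 were lower and 1 was higher than in the parental line. Their summed level was 12.35 and 11.9 TPM in B04 against 10.48 and 11.01 TPM in parental cells. Dcn had 23.8 and 23.4 normalised counts in parental cells, 0.91 and 0 in B04, and 4.53 and 3.15 in B64. Pdgfra had 189.8 and 150.6 in parental cells, 103.1 and 82.4 in B04, and 182.4 and 169.3 in B64, whereas Pdgfrb was highest in B04, at 1003.3 and 948.7 against 632.0 to 696.8 in the other lines. Their part in the level of Il11, and in those of Pdgfa and Clcf1, was not tested. When fragment class was blocked, the fall of Il11 in B04 was -1.55 (adjusted p = 0.0321) and the difference between B64 and B04 was 1.29 (adjusted p = 0.0813).

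Lif (ENSMUSG00000034394, chr11:4257557-4272514, plus strand), which keeps mouse embryonic stem cells undifferentiated and signals through Lifr and gp130, had 446.4 and 432.1 normalised counts in parental cells, 429.6 and 412.2 in line B04, and 479.1 and 485.7 in line B64. The 2 libraries of each line stood apart from those of the others, but by little. No comparison passed the threshold: the log2 fold change was -0.06 for B04 over parental (95% confidence interval -0.34 to 0.22, adjusted p = 0.841), 0.14 for B64 over parental (-0.14 to 0.41, adjusted p = 0.634) and 0.20 for B64 over B04 (-0.08 to 0.48, adjusted p = 0.368). Whether Lif differed from Il11 in its change between lines was not tested.

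Csf1 (ENSMUSG00000014599, chr3:107741048-107760469, minus strand), the macrophage growth factor, had 9779 and 9064 normalised counts in parental cells, 9657 and 9570 in line B04, and 9751 and 9192 in line B64. The groups overlapped throughout. The log2 fold change was 0.03 for B04 over parental (95% confidence interval -0.09 to 0.15, adjusted p = 0.812), 0.01 for B64 over parental (-0.11 to 0.12, adjusted p = 0.968) and -0.02 for B64 over B04 (-0.14 to 0.09, adjusted p = 0.866). The intervals therefore leave room for differences of at most 0.15 on the log2 scale under this model.

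Vegfa (ENSMUSG00000023951, chr17:46016993-46032369, minus strand) had 5287 and 5206 normalised counts in parental cells, 5019.9 and 5094 in line B04, and 6193 and 6331 in line B64. Both B64 libraries lay above the other 4, and the B04 libraries lay just under the parental ones. The level in B64 was 1.19-fold that in the parental line (log2 fold change 0.26, SE 0.06, adjusted p = 0.000169) and 1.24-fold that in B04 (0.31, SE 0.06, adjusted p = 1.52e-06). B04 and the parental line differed by -0.05 (95% confidence interval -0.17 to 0.06, adjusted p = 0.601). The call between B64 and the parental line was lost with a block for fragment class (0.23, adjusted p = 0.529) and with RSEM effective length as an offset (0.17, adjusted p = 0.126). Between the B64 libraries and B04 replicate B, all with short fragments, the difference in Vegfa was 0.30 (adjusted p = 0.00206). On log2(TPM + 1) with limma, neither difference of B64 passed the threshold (adjusted p = 0.099 and 0.0698). The summed leukocyte and epithelial markers, given above, were also higher in both B64 libraries through Cd68, Krt18 and Krt20. Ptprc was at the floor and Cdx2 at 0 in both B64 libraries. The part of these markers in the results for Vegfa and Mif was not tested.

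Mif (ENSMUSG00000033307, chr10:75859353-75860240, minus strand) had 12005 and 13293 normalised counts in parental cells, 11023 and 12098 in line B04, and 14259 and 13962 in line B64. Both B64 libraries were highest, and the parental and B04 libraries overlapped. The level in B64 was 1.22-fold that in B04 (log2 fold change 0.29, SE 0.06, adjusted p = 8.51e-05). The difference from the parental line was 0.16 for B64 (SE 0.06, adjusted p = 0.0757) and -0.13 for B04 (SE 0.06, adjusted p = 0.137). Expected counts of Mif were not whole numbers, so some of its reads were divided with other genes, and its level is uncertain. Those genes were not identified, and the annotated pseudogenes Mif-ps3 and Mif-ps7 were given 0 counts in all libraries. Among the short-fragment libraries B64 lay above B04 replicate B by 0.22. The difference of B04 from the parental line hung on single libraries. It was -0.20 without parental replicate A and -0.20 without B04 replicate B. Without parental replicate B it was -0.0575, and without B04 replicate A it was -0.0663. With limma on log2(TPM + 1), the difference between B64 and B04 was 0.19 (adjusted p = 0.13), and B64 no longer lay above the parental line (-0.0020).

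The receptors of these factors were measured to see which could be bound on the same cells. Of the 22 receptor genes listed, 11 were at the floor in every library. The receptor of Csf1, Csf1r, did not exceed 0.07 TPM, and Csf3r and the lymphatic receptor Flt4 were at 0. Lifr, which binds Lif, had at most 0.02 TPM, and Kdr, the main endothelial receptor of Vegfa, at most 0.01 TPM. Flt1, another receptor of Vegfa, was above the floor in every library, at 0.57 to 0.85 TPM, and was not called in any comparison. Il6st was present at 19.7 to 32.1 TPM, with Il6ra at 2.97 to 5.76 TPM and Il11ra1 at 2.66 to 3.34 TPM. For Mif, the receptor gene Cd74 ranged from 2.09 to 11.3 TPM and its partner Cd44, an adhesion receptor, from 62.2 to 103.2 TPM. The Tslp receptor chain Crlf2 lay at 15.2 to 18.9 TPM while its partner Il7r did not exceed 0.01 TPM.

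**Figure D3:**
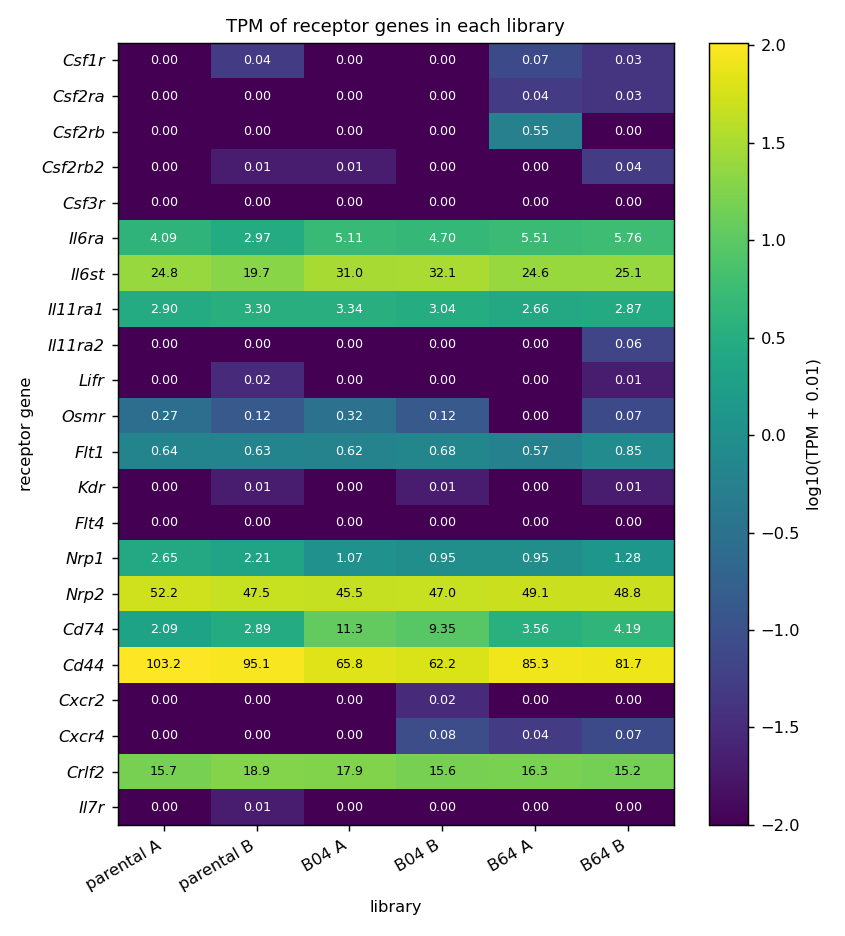
TPM of the 22 receptor genes (rows) in the 6 libraries (columns), printed in each cell and coloured by log10(TPM + 0.01). Csf1r, Csf3r, Lifr, Kdr and Flt4 lie near 0, whereas Il6st, Nrp2, Cd44 and Crlf2 are above 15 TPM in every library.

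Of the 10 receptor genes tested, 3 were higher and 3 lower in B04 than in the parental line, 1 was higher and 2 lower in B64 than in the parental line, and 1 was higher and 2 lower in B64 than in B04. Over all genes tested, 24.1%, 16.3% and 24.3% were called in these comparisons. The median log2 fold changes of the receptor genes were -0.14, -0.03 and 0.14, beside 0.00 for all genes in each comparison. Cd74 had 38.2 and 56.1 normalised counts in parental cells, 203.4 and 173.0 in line B04, and 68.0 and 79.9 in line B64. It was highest in both B04 libraries, 3.99-fold above the parental line (SE of the log2 fold change 0.31, adjusted p = 6.24e-09), and B64 lay below B04 by -1.35 (SE 0.31, adjusted p = 0.00011), a call lost without B04 replicate A (adjusted p = 0.0522). Cd44 had 5938 and 5811 normalised counts in parental cells, 3678 and 3552 in line B04, and 4902 and 4815 in line B64. It was lower in both clones than in the parental line, by -0.70 in B04 (adjusted p = 1.43e-28) and -0.27 in B64 (adjusted p = 0.000105), and the second call was lost with the fragment-length block (adjusted p = 0.646). The pair of genes that serve Mif thus moved in opposite directions in B04.

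Il6st had 3091 and 2675 normalised counts in parental cells, 3755 and 3591 in line B04, and 2890.5 and 2955 in line B64. It was highest in B04, with a log2 fold change of 0.35 over the parental line (SE 0.08, adjusted p = 0.000108), and B64 lay below B04 by -0.33 (SE 0.08, adjusted p = 0.0003), although not with limma on log2(TPM + 1) (adjusted p = 0.118). In B04 the shared chain of the family was therefore higher where Il11 was lower. Il11ra1 was not called in any comparison, with log2 fold changes of -0.39, 0.05 and 0.43, which turned sign with limma on log2(TPM + 1) (0.0321, -0.12 and -0.15). Il6ra was higher in B04 (0.43, adjusted p = 0.0336) and in B64 (0.65, adjusted p = 0.000675) than in the parental line, but the call in B04 held under 3 of 15 alternatives and was lost whichever library but parental replicate A was left out (adjusted p = 0.0881 to 0.454), and that in B64 was lost without parental replicate B or B64 replicate A (adjusted p = 0.105 and 0.0516). Nrp1, a co-receptor of Vegfa, was lower in B04 (-1.32, adjusted p = 0.000242) and in B64 (-1.13, adjusted p = 0.00328), and both calls were lost without parental replicate A (adjusted p = 0.0534 and 0.182), the call in B64 also without parental replicate B or B64 replicate A (adjusted p = 0.0521 and 0.192). Nrp2 was lower in B04 by -0.19 (adjusted p = 0.00794), a call lost without parental replicate A or either B04 library (adjusted p = 0.163, 0.122 and 0.0715).

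Other ligands of the same families were taken from a list of 23 genes, of which 11 were at the floor and 12 were tested. In B04, 0 were higher and 3 lower than in the parental line, namely Clcf1, Il7 and Pdgfa. In B64, 1 was higher and 0 lower than in the parental line, and 4 were higher and 0 lower than in B04. Over all genes tested, 24.1% were called in B04 against the parental line, 11.2% higher and 12.9% lower. The shares were 16.3% for B64 against the parental line and 24.3% for B64 against B04. The median log2 fold changes of the listed ligands were -0.22, 0.05 and 0.59, beside 0.00 for all genes in each comparison. Clcf1, a gp130 cytokine that signals through the ciliary neurotrophic factor receptor, had 344.4 and 307.7 normalised counts in parental cells, 156.0 and 154.7 in line B04, and 343.2 and 310.1 in line B64. Its B04 libraries lay below all others, with a log2 fold change of -1.07 from the parental line (SE 0.19, adjusted p = 3.54e-07) and 1.07 for B64 over B04 (SE 0.19, adjusted p = 3.51e-07), and both calls held under all 15 alternatives. Il7, a lymphocyte growth factor named here after its values were seen, had 27.7 and 27.1 normalised counts in parental cells, 8.2 and 4.1 in line B04, and 34.0 and 42.1 in line B64 (log2 fold change -2.14, SE 0.69, adjusted p = 0.0108 for B04 over parental, and 2.62, SE 0.69, adjusted p = 0.00108 for B64 over B04). The fall of Il7 in B04 was lost without either parental library or B04 replicate B (adjusted p = 0.0896 to 0.189), and the difference from B64 without replicate B of either clone (adjusted p = 0.0565 and 0.0666). Il11, Clcf1 and Il7 were each lowest in both B04 libraries, as were Il6, Lif, Vegfa, Pdgfa, Il34 and Fgf2. The related ligand Vegfb was highest in both, and the share of all genes with either pattern was not computed.

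Pdgfa, a growth factor of fibroblasts, had 580.0 and 625.7 normalised counts in parental cells, 380.3 and 342.0 in line B04, and 536.9 and 536.2 in line B64, with log2 fold changes of -0.74 (adjusted p = 2.47e-06) for B04 over parental and 0.57 (adjusted p = 0.000531) for B64 over B04. Without B04 replicate B the second call was lost (adjusted p = 0.0514). Il34, the other ligand of Csf1r, had 222.3 and 231.9 normalised counts in parental cells, 183.3 and 170.0 in line B04, and 327.3 and 314.4 in line B64. It was higher in B64 than in B04 by 0.86 (SE 0.19, adjusted p = 8.75e-05) and no group overlapped another. Csf1 by contrast overlapped between all lines, and the difference between these ligands was not tested. Angpt2, a vessel-destabilising factor also named after its values were seen, was the gene called in B64 over the parental line, with 8.6 and 8.4 normalised counts in parental cells and 30.6 and 30.5 in B64 (1.84, SE 0.69, adjusted p = 0.0479), and this call was kept under 2 of 15 alternatives and lost whichever library was left out (adjusted p = 0.103 to 0.337).

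Of 16 genes that carry or restrain the signals of these receptors, 14 were tested. In B04, 2 were higher and 3 lower than in the parental line, in B64 2 were higher and 1 lower than in the parental line, and 4 were higher and 1 lower in B64 than in B04. The shares called over all genes tested were 24.1%, 16.3% and 24.3%. The median log2 fold changes of the listed genes were -0.02, 0.13 and 0.13. Stat3, the main transcription factor downstream of gp130, was higher in B64 than in B04 by 0.49 (SE 0.11, adjusted p = 5.33e-05), with 768.9 and 769.5 normalised counts in B04 and 1066 and 1092 in B64, whereas the offset for effective length gave 0.50 with an adjusted p of 0.438 and limma on log2(TPM + 1) gave 0.43 with an adjusted p of 0.4.

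Socs3, the feedback inhibitor that STAT3 induces, was not called in any comparison, with log2 fold changes of -0.16, -0.07 and 0.09, the first and last of which turned sign without B04 replicate A (0.0292 and -0.0961). The phosphatase gene Ptpn6 was higher in B04 (0.60, adjusted p = 0.000283) and in B64 (0.84, adjusted p = 1.61e-07) than in the parental line, of which the second was lost with the fragment-length block (adjusted p = 0.114) and both with limma on log2(TPM + 1) (adjusted p = 0.115 and 0.0514). Ptpn11, the phosphatase that links receptors to Ras, was lower in both (-0.24, adjusted p = 0.000321 and -0.22, adjusted p = 0.00204), and the call in B64 was lost with the fragment-length block (adjusted p = 0.505) and without parental replicate A or either B64 library (adjusted p = 0.108, 0.11 and 0.0583). Pias3, an inhibitor of STAT3, was higher in B04 than in the parental line (0.46, adjusted p = 0.00267) and lower in B64 than in B04 (-0.44, adjusted p = 0.00469), and both calls were lost without B04 replicate B (adjusted p = 0.141 and 0.156), the first also without parental replicate B (adjusted p = 0.119) and the second without B64 replicate B (adjusted p = 0.183). Jak2 was higher in B64 than in B04 by 0.30 (adjusted p = 0.00808), a call lost without B04 replicate B or either B64 library (adjusted p = 0.238, 0.111 and 0.12).

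Of 25 genes for transcription and mRNA-decay factors known to act on these cytokine genes, 23 were tested. In B04, 3 were higher and 5 lower than in the parental line, in B64 3 were higher and 0 lower than in the parental line, and 5 were higher and 3 lower in B64 than in B04. The shares called over all genes tested were 24.1%, 16.3% and 24.3%. The median log2 fold changes of the listed genes were 0.03, 0.11 and 0.10. Of the AP-1 subunit genes in this list, Fosl1, Junb and Jun were called lower in B04, while Fosl2 (1559 and 1592 normalised counts in parental cells, 1806 and 1712 in B04) and Fos (11.2 to 29.6 in all 6 libraries) were not called there. Fosl1 had 2418 and 2575 normalised counts in parental cells, 1077 and 1117 in line B04, and 2161 and 2180.5 in line B64. It was lowest in B04 (log2 fold change -1.19, SE 0.08, adjusted p = 1e-44) and higher in B64 than in B04 (0.99, SE 0.08, adjusted p = 2.15e-30). Junb had 1522 and 1697 normalised counts in parental cells, 1032 and 998.5 in line B04, and 1991 and 2086 in line B64, with log2 fold changes of -0.66 (adjusted p = 2.82e-11) for B04 over parental and 1.01 (adjusted p = 1.13e-25) for B64 over B04. Jun fell less evenly, with 1031 and 1206 normalised counts in parental cells, 588.3 and 742.0 in line B04, and 875.5 and 995.6 in line B64 (-0.75, adjusted p = 2.86e-07 for B04 over parental).

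The plot of Il11 with related ligands and factor genes sets these libraries side by side. Between B64 and B04 Jun lay 0.49 higher (adjusted p = 0.00162), and this call was lost without B04 replicate A or B64 replicate B (adjusted p = 0.173 and 0.129) and with the fragment-length block (adjusted p = 0.216). Rel, a subunit of NF-kB, moved the other way, with 393.0 and 358.2 normalised counts in parental cells, 846.4 and 735.9 in line B04, and 431.5 and 444.7 in line B64 (1.08, SE 0.14, adjusted p = 6.63e-13 for B04 over parental, and -0.85, SE 0.14, adjusted p = 2.07e-08 for B64 over B04). Nfkbia, the inhibitor that NF-kB induces, was also higher in B04 than in the parental line (0.75, SE 0.23, adjusted p = 0.006, named after its values were seen). That call was lost without parental replicate A (0.56) or B04 replicate A (0.63). The other NF-kB genes of the list, Nfkb1, Nfkb2, Rela, Relb, Nfkbiz and Ikbkb, were not called higher in B04. Nfkb1 had 2991 and 3049 normalised counts in parental cells and 3083 and 3098 in B04. Rela had 1993 and 1956 in parental cells and 2057 and 2050 in B04. Ets1 was higher in B04 than in the parental line (0.29, adjusted p = 0.00747, lost without any parental or B04 library, at 0.0701 to 0.141) and lower in B64 than in B04 (-0.46, adjusted p = 5.34e-06). Hif1a, the hypoxia factor that acts on Vegfa, was higher in B64 than in B04 by 0.27 (SE 0.07, adjusted p = 0.00128), with 4309 and 3979 normalised counts in B04 and 4742 and 5276 in B64, a call lost without B04 replicate B or B64 replicate B (adjusted p = 0.0937 and 0.163). Whether any of these genes bears on the levels of Il11, Il6 or Vegfa was not tested.

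**Figure D4:**
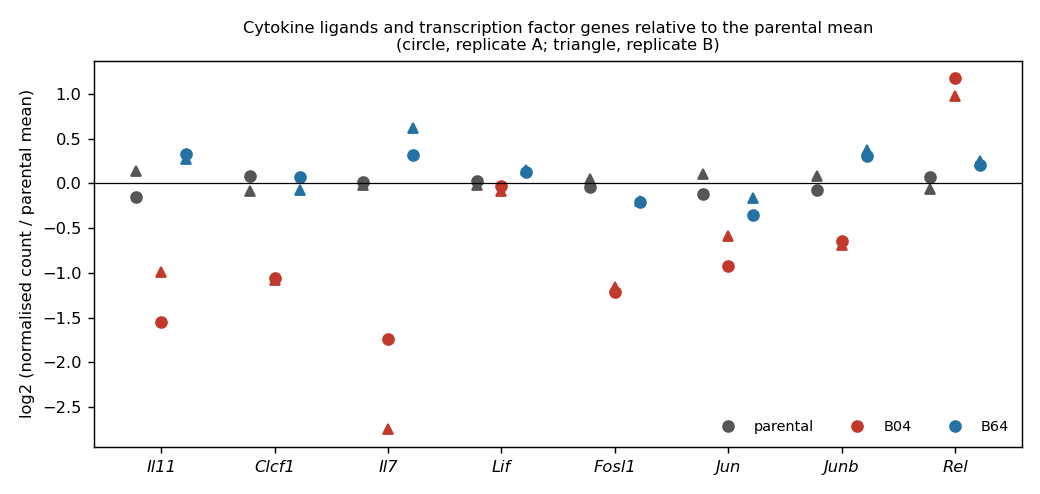
Log2 ratio of the normalised count in each library to the parental mean for the ligands Il11, Clcf1, Il7 and Lif and the factor genes Fosl1, Jun, Junb and Rel. Circles are replicate A and triangles replicate B. Both B04 libraries lie lowest for Il11, Clcf1, Il7, Lif, Fosl1, Jun and Junb and highest for Rel. For Lif the lines lie within a narrow range.

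For the called genes with the largest differences, Il11 and Vegfa, the genes with the most similar pattern were sought by Pearson correlation of log2(normalised count + 1) over the 6 libraries among 10474 genes with a mean of at least 50 normalised counts. The 6 points share their libraries and depth, so the values are a description. For Il11 the closest reported here were Banp (r = 0.998) and Psmd11 (r = 0.997), a proteasome subunit gene, and 258 genes reached an r of 0.95. Banp had 342.5 and 359.1 normalised counts in parental cells, 290.9 and 313.5 in line B04, and 370.4 and 362.7 in line B64, a narrower range than that of Il11. For Vegfa the closest were Ppard (r = 0.997), a nuclear receptor gene, Ptpn7 (r = 0.996) and Dusp4 (r = 0.996), which encode phosphatases of MAP kinases, and 271 genes reached an r of 0.95. Ptpn7 had 20.99 and 18.71 normalised counts in parental cells, 10.94 and 10.18 in line B04, and 690.9 and 781.2 in line B64, a far wider range than that of Vegfa.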

How the data were processed

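Poly(A)-selected RNA of 6 libraries was sequenced by the authors as paired reads, aligned to mm10 with STAR and quantified with RSEM, per the study's methods and the labels. Each deposited table lists for every gene the expected count, in which the authors' RSEM run divided reads that match several genes among them, and TPM, scaled by effective gene length and library total. The annotation release is not given in the sources used here. The gene lengths and effective lengths used here are columns of these deposited tables. The FPKM column was not used. Of 53801 identifiers, 53620 (99.7%) matched a symbol in GENCODE M21 (GRCm38, the assembly of mm10), which also gave the coordinates, counted from 1.

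After rounding of the expected counts, DESeq2 (1.42.0, under R 4.3.3) was run as one fit of all 6 libraries with the line as the only term, without shrinkage, with Benjamini-Hochberg adjustment over all genes tested and a threshold of 0.05. All adjusted p-values are from this two-sided Wald test unless another tool is named. Log2 fold changes and their standard errors (SE) come from the fit, and normalised counts are counts divided by size factors. A gene with at most 3 counts in every library was treated as being at the floor, which covers counting error only, since PCR copies are not independent molecules. Library totals ranged from 19409204 to 23472012, and fragment classes were split at 260 bases. Replicates were not copies of one library, with a chi-square per degree of freedom of 6.81, 6.17 and 5.09 in the parental line, B04 and B64.

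The 10 genes and the lists of receptors, ligands, transducers, regulators and cell type markers were chosen with earlier results of these data known. The text names every one of the 10 and, of each list, at most 6 genes with the smallest adjusted p and a mean of at least 50 normalised counts, plus receptor chains of a described factor. A few genes that the rules select are not reported here. Alternatives were edgeR (version 4.0.16), other filters, blocks for replicate letter and fragment class, a fit of 2 lines, an effective-length offset, limma (version 3.58.1) on log2(TPM + 1) and log2(TPM + 0.1), and leaving out each library, 15 per comparison. On simulated counts for B04 versus parental with 14581 genes tested, DESeq2 recovered 31 of 50 genes changed by a log2 fold of 0.5. It recovered 39 of 50 changed by 1, 50 of 50 changed by 2 and 49 of 50 changed by 3. Only these genes were changed, a smaller share than the 24.1% called between B04 and the parental line, so the rates may differ in these data. The changed genes were drawn only from those with a mean of at least 50 normalised counts. These rates therefore do not cover genes with fewer counts, such as Il7, Angpt2 and Dcn. With 2 libraries a line, no test for outlying libraries was possible. Promoter windows were taken from RefSeq (GRCm38.p6).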

Additional observations from a re-analysis of the deposited data

Results flagged for a closer look

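The clones were each compared with the same parental libraries, and the direct test of B64 against B04 is the test of whether their differences from the parental line differ. Under DESeq2 this test was past the threshold for 3 of the 5 tested factors. Its log2 fold change was 1.55 for Il11 (adjusted p = 0.000259), 0.31 for Vegfa (adjusted p = 1.52e-06) and 0.29 for Mif (adjusted p = 8.51e-05), each higher in both B64 libraries than in both B04 libraries.

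Among the receptor genes the difference of B64 from B04 was 0.43 for Cd44, -1.35 for Cd74 and -0.33 for Il6st. Among the other ligands it was 1.07 for Clcf1, 0.57 for Pdgfa, 0.86 for Il34 and 2.62 for Il7. Among the signalling genes it was 0.49 for Stat3, 0.30 for Jak2 and -0.44 for Pias3. Among the regulators it was 0.99 for Fosl1, 1.01 for Junb, 0.49 for Jun, 0.27 for Hif1a, -0.85 for Rel and -0.46 for Ets1. All are log2 fold changes with a DESeq2 adjusted p under 0.05. These genes were picked for a small adjusted p or after their values were seen, so that they were called is not a result. Over the whole lists, 3 of 10 receptor genes, 4 of 12 ligands, 5 of 14 signalling genes and 8 of 23 regulators were called. The share of all genes tested was 24.3%.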

How the results depend on the processing

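Of 225 values recomputed for the 5 tested genes, 196 kept their direction and their side of the threshold, 12 lost a call, 3 gained one and 14 turned sign. Csf2 and Il6, too low to test, gave 78 further values, of which 7 turned sign, and Csf3, Vegfc and Tslp were not recomputed. In B04 against the parental line 1 gene was called, 2 with the effective-length offset (Mif at -0.27 was also past the threshold) and 0 to 2 when a library was left out (0 without parental replicate B or B04 replicate A, 2 without parental replicate A). In B64 against the parental line 1 was called, 0 with the fragment-length block, the offset or limma with either pseudocount, and 1 to 2 when a library was left out (2 without parental replicate B, where Mif was called at 0.23). In B64 against B04 3 were called, 1 with limma at either pseudocount, and 2 to 3 when a library was left out. With the fragment-length block Il11 lost its call in this comparison (1.29, DESeq2 adjusted p = 0.0813), while Vegfa and Mif kept theirs. The share of all genes called was not worked out for the alternatives, so the counts under them have no background beside them. With the replicate block the counts were 1, 1 and 3, as without it. Replicates of the same letter correlated weakly in their deviations from the line means (0.11, 0.01 and -0.05), so the letters were not taken to pair the libraries, and of the named genes Il6ra (0.44 in B04) and Angpt2 (1.85 in B64) lost a call with that block.

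Signs turned in comparisons where the gene was not past the threshold. With the offset, B04 against the parental line was -0.0171 for Csf1, B64 against the parental line was -0.0458 for Mif and 0.0147 for Pdgfa and -0.20 for Il11ra1, and B64 against B04 was 0.0643 for Csf1 and -0.17 for Il11ra1. With limma at either pseudocount, B64 against B04 was 0.0300 and 0.0301 for Csf1 and -0.15 and -0.20 for Il11ra1, B04 against the parental line was 0.0474 and 0.0512 for Lif and 0.0321 and 0.0413 for Il11ra1, and B64 against the parental line was -0.0020 and -0.0020 for Mif, -0.12 and -0.16 for Il11ra1 and 0.0545 and 0.0570 for Pdgfa. With the fragment-length block, B64 against the parental line was -0.26 for Il11 and -0.12 for Pias3, and B64 against B04 was -0.0978 for Socs3. Leaving out a library gave -0.0274 to 0.0832 for Csf1 and -0.37 to 0.0292 for Socs3 in B04 against the parental line, -0.0486 to 0.0610 for Csf1, -0.0829 to 0.13 for Il6st, -0.0675 to 0.16 for Il11ra1, -0.0790 to 0.0835 for Clcf1 and -0.0637 to 0.10 for Pias3 in B64 against the parental line, and -0.0628 to 0.0211 for Csf1, -0.0961 to 0.31 for Socs3 and -0.0650 to 0.40 for Nrp1 in B64 against B04. The causes were not tested.

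With 2 libraries a line, leaving one out assumes that the lone library varies like the other lines. Depth limits Csf2, Csf3, Il6, Vegfc and Tslp, for which no difference was detectable, and Il11, whose B04 libraries held 31 and 41 counts.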
